A study of Mus musculus with 2148 samples.

Results

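The 10 genes described here encode the MHC class II pathway: the class II transactivator Ciita, the classical chains H2-Aa, H2-Ab1 and H2-Eb1, the invariant chain Cd74, the peptide exchange factor H2-DM (H2-DMa, H2-DMb1, H2-DMb2) and its inhibitor H2-DO (H2-Oa, H2-Ob). They were chosen by symbol, matched to the Ensembl identifiers of a count table of 48437 genes, and all 10 were found and passed the filter on low counts. The rule itself uses symbols and no measured value. Their reads made up 0.638% of all reads.

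MHC class II molecules present peptides to CD4+ T cells. In the thymus, cortical thymic epithelial cells (cTECs) use them for positive selection of CD4+ thymocytes, and medullary thymic epithelial cells (mTECs) use them to display self peptides for tolerance. CIITA is a coactivator without DNA binding of its own that is brought to class II promoters by RFX, CREB and NF-Y proteins, which bind the X and Y boxes. CD74 escorts new class II dimers to endosomes and leaves the fragment CLIP in the groove, H2-DM exchanges CLIP for other peptides, and H2-DO binds H2-DM and inhibits it.

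The study profiled single thymic epithelial cells of C57BL/6 mice by RamDA-seq, a plate-based method that reads total RNA along the whole transcript. Cells were sorted as DAPI- CD45- EpCAM+ and split into mTEChi (Ly51- with high surface MHC class II), mTEClo (Ly51- with low surface MHC class II) and cTEC (Ly51+). The cells came from 26 experimental batches of the labels, called plates here, and had 203010 to 1823784 counted reads each (median 692880). Cells of a group with the same age and sex in the labels were summed into 13 pools, and the number of animals behind a pool is not given in the sources used here.

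Adult wild-type mTEChi comprised 620 cells in 4 pools. Pool 1 held 6 plates of 64 to 87 cells from 4-week males, pool 2 held 12 cells of 5-week males, pool 3 held 82 cells of 6-week males and pool 4 held 82 cells of 4-week females. Pool 2 lay on a plate of 17 cells that also held cells of pool 3, so these pools share a plate. Adult wild-type mTEClo came in 3 male pools. Pool 1 held 3 plates of 68 to 77 cells at 8 weeks, an age with no mTEChi pool, pool 2 held 74 cells at 5 weeks and pool 3 held 66 cells at 4 weeks. Adult wild-type cTECs were 1 pool of 77 cells from 6-week males. Aire-KO mice, which lack the autoimmune regulator Aire, gave 1 pool of mTEChi (4 plates of 81 to 87 cells) and 1 pool of mTEClo (2 plates of 73 and 81 cells), both from 5-week males. Neonates at 1 day of age, of unknown sex, all wild type, gave all 3 sorts on each of 5 plates, with 32 to 40 mTEChi, 11 to 30 mTEClo and 22 to 37 cTECs per plate. No adult plate held 2 groups, so plate and group cannot be told apart in adults. Nothing says that the pools or the neonatal plates came from separate animals, so p-values measure the spread between these sums, which may be technical.

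The summed level of Psmb11, Prss16, Ccl25 and Ly75, the cTEC list, was 4593 reads per 1000000 counted reads (CPM) in adult cTECs, 4825 CPM in neonatal cTECs and at most 565.6 CPM in adult mTEChi pools. Neonatal mTEClo held 1767.5 CPM of it, well above neonatal mTEChi (431.5 CPM) and the adult mTEClo pools (108.3 to 311.5 CPM). Aire stood at 1109.7 to 1844.6 CPM in the adult wild-type mTEChi pools and at 17.0 to 36.9 CPM on the Aire-KO mTEChi plates. A library-level difference ran through adult mTEClo: cells with at least 4 of 6 tuft cell markers at 5 or more reads made up 6.45% of pool 1, 75.7% of pool 2 and 57.6% of pool 3. In pool 1, labelled male, 2 to 8 cells of each plate had more Xist reads than reads of Y-linked genes, and 89.6 to 97.1% of the cells with more Y-linked reads also held Xist reads, against 11.0 and 11.1% on the plates of pools 2 and 3.

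The promoters are shown first because the class II genes share a promoter grammar that CIITA acts through. Of the 10 genes, 7 had an entry in the RefSeq promoter table (build GRCm38.p6, 250 bases before to 50 after the start), and 6 of them, plus the related gene H2-Eb2, held X box letters (GCAAC, AACNNATG or both) followed 15 to 30 bases later by the Y box core GATTGG. Searched on both strands, the pair was found in 0.347% of 32851 promoters, whereas GATTGG alone was in 16.1%, AACNNATG in 8.86% and GCAAC in 35.2%. AACNNATG and GCAAC overlap where both match. The letters were chosen after these sequences had been read, so the count is a description. Windows of 66 bases follow, 5′ to 3′ on the gene's strand, with the X letters and then GATTGG in capitals.
H2-Aa, chr17:34287852-34287917 (-): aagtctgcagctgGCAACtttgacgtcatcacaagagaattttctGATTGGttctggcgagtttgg
H2-Eb1, chr17:34305762-34305827 (+): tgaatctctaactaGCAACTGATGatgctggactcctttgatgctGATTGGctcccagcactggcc
H2-DMb1, chr17:34153084-34153149 (+): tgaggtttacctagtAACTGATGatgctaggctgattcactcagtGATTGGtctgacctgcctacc
H2-DMb2, chr17:34145113-34145178 (+): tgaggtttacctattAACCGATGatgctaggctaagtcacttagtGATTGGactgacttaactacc
H2-Oa, chr17:34092290-34092355 (+): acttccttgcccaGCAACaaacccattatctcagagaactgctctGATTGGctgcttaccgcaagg
H2-Ob, chr17:34238802-34238867 (+): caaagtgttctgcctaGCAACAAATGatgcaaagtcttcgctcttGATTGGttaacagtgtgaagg
H2-Eb2, chr17:34325529-34325594 (+): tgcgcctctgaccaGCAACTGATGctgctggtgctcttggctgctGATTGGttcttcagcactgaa

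The H2-DMb1 and H2-DMb2 windows are near-copies of each other, as the genes are, and reads that the authors' counting could not place between them make the level of either uncertain. For H2-DMa, whose product pairs with those of both H2-DMb genes, the pair of letters was in neither promoter entry. The entry at chr17:34122582-34122881 held GCAAC alone, and that at chr17:34125268-34125567 held GATTGG alone. The gene is annotated from 34119541 to 34139101, and any other start in it was not searched. In mm10, Ciita lies on chromosome 16 (10480059 to 10528418, + strand), Cd74 on chromosome 18, and the other 8 genes on chromosome 17 between H2-Oa (34092340 to 34095234) and H2-Eb1 (34305867 to 34316674). Reads were counted without regard to strand, and 22.8% of the exon bases of H2-Oa were shared with BC051537, 10.4% of those of H2-DMa with Brd2 and 3.45% of those of Ciita with Dexi.

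Among adult wild-type mTEChi, expressed per kilobase of exon, Cd74 stood highest at 1347.7 ± 214.1 CPM per kb (SD, n = 4 pools). The classical chains followed, with H2-Eb1 at 694.3 ± 97.8, H2-Ab1 at 584.7 ± 78.8 and H2-Aa at 428.4 ± 57.3 CPM per kb. H2-DMb2 (250.8 ± 32.0) came next, then H2-Oa (109.8 ± 11.7), H2-DMb1 (83.04 ± 7.95), Ciita (65.5 ± 7.39), H2-DMa (57.5 ± 9.38) and H2-Ob (30.2 ± 4.06 CPM per kb). In this order the pool ranges of the neighbours H2-Eb1 and H2-Ab1 overlapped, as did those of Ciita and H2-DMa, and the other neighbours did not overlap. The inhibitor chain H2-Oa was thus at a level per length above that of H2-DMa, one of the chains that H2-DO inhibits. This order depends on the exon lengths used. In CPM, H2-Oa was at 154.5 and H2-DMa higher at 198.3. The classical chains also changed order in CPM, with H2-Aa at 1627.2, H2-Ab1 at 1501.5 and H2-Eb1 at 1349.7.

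**Figure D1:**
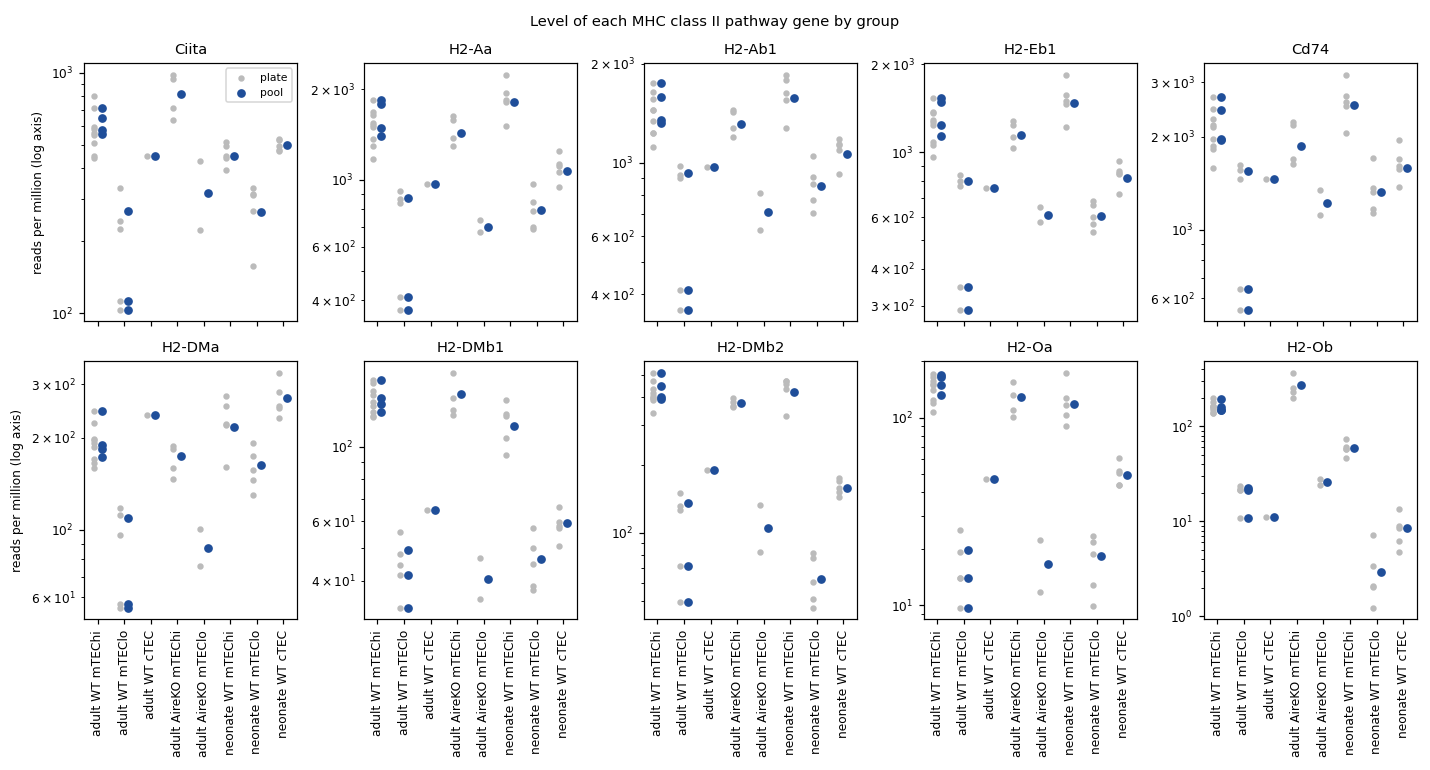
Level of each of the 10 genes in CPM (log axis) in the 8 groups, with 1 panel per gene. Blue points are pools and grey points are plates. H2-Oa, H2-Ob and H2-DMb2 fall furthest from mTEChi to mTEClo, and H2-Ob is low in cTECs.

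The comparison of adult mTEChi with adult mTEClo asks how the pathway differs between the MHC class II high and low gates, and the gate itself used an antibody to the proteins of the classical genes. All 10 genes were higher in mTEChi in the fit, and 7 of 10 passed the test (edgeR's quasi-likelihood test on pool sums, Benjamini-Hochberg adjusted p under 0.05 and at least 2-fold), where 11.7% of the 39971 genes tested passed. The median log2 difference of the 10 genes was 1.43, against 0.298 for all genes tested. With the size factors of DESeq2 in place of TMM, the median of all genes shifted to 0.398 and the 10 genes stayed above it.

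The inhibitor H2-DO showed the widest gap. H2-Oa, the alpha chain, stood at 132.9, 168.6, 150.5 and 166.1 CPM in mTEChi pools 1 to 4 and at 19.6, 14.0 and 9.7 CPM in mTEClo pools 1 to 3. The groups were far apart, and no mTEChi pool came near the highest mTEClo pool. H2-Oa was 9.16-fold higher in mTEChi (log2 3.19 ± 0.32 SE, adjusted p = 0.00202 by edgeR's quasi-likelihood test). H2-Ob, the beta chain, stood at 159.5, 149.4, 194.5 and 147.5 CPM in mTEChi and at 22.3, 10.9 and 21.6 CPM in mTEClo. It was 7.68-fold higher (log2 2.94 ± 0.32, edgeR adjusted p = 0.00279), again without overlap. H2-Oa passed under all 17 alternatives, with log2 differences of 2.64 to 4.29. H2-Ob passed under 16 of 17 and missed the threshold without cells carrying 2 or more tuft markers (edgeR adjusted p = 0.1097).

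Of the H2-DM genes, H2-DMb2 rose most. It stood at 399.4, 450.04, 390.8 and 512.3 CPM in mTEChi and at 135.6, 49.2 and 71.6 CPM in mTEClo, a 4.34-fold difference (log2 2.12 ± 0.39, edgeR adjusted p = 0.0141). H2-DMb1, its near-copy, at 126.8 to 157.95 CPM in the mTEChi pools and 33.3 to 49.5 CPM in the mTEClo pools, was higher by 2.91-fold (log2 1.54 ± 0.23, edgeR adjusted p = 0.00757). H2-DMa, the alpha chain that both DMb products pair with, was higher by 2.29-fold (log2 1.19 ± 0.32, edgeR adjusted p = 0.0471), close to the threshold. Its pools ran from 173.4 to 245.7 CPM in mTEChi and from 55.5 to 108.9 CPM in mTEClo, so they too did not overlap.

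Ciita, the regulator of the others, stood at 556.6, 648.5, 579.6 and 712.1 CPM in mTEChi and at 265.9, 103.8 and 112.5 CPM in mTEClo. It was 3.28-fold higher in mTEChi (log2 1.71 ± 0.39, edgeR adjusted p = 0.0280). H2-Aa, the alpha chain of I-A, stood at 1397.5, 1784.8, 1487.6 and 1838.9 CPM against 873.2, 371.96 and 409.1 CPM, and was 2.50-fold higher (log2 1.32 ± 0.36, edgeR adjusted p = 0.0459). The 3 remaining genes missed the threshold. H2-Ab1, the I-A beta chain, differed by log2 1.16 ± 0.38 (edgeR adjusted p = 0.0747). H2-Eb1, the I-E beta chain, which has no functional alpha partner in C57BL/6 mice, differed by log2 1.25 ± 0.39 (edgeR adjusted p = 0.0690). Cd74 differed by log2 1.06 ± 0.40 (edgeR adjusted p = 0.107).

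In all 10 genes mTEClo pool 1 was the highest of the mTEClo pools, for H2-Ob by under 1 CPM, and pools 2 and 3, the pools rich in cells with tuft markers, were lower. Cd74 was at 1547.1 CPM in mTEClo pool 1 and at 552.4 and 642.7 CPM in pools 2 and 3, beside 1956.4 to 2688.1 CPM in mTEChi. A fit without pools 2 and 3, a choice made after the data were seen, left mTEClo pool 1 alone, so only its differences are given. In that fit the log2 differences were 0.21 for Cd74, 0.35 for H2-Ab1, 0.42 for H2-Eb1, 0.53 for H2-DMa, 0.56 for H2-Aa, 0.89 for Ciita and 1.16 for H2-DMb1, and 1.35 for H2-DMb2, 2.53 for H2-Ob and 2.64 for H2-Oa. Cd74, H2-Ab1, H2-Eb1, H2-DMa, H2-Aa and Ciita thus differed by less than 2-fold in this fit. Over all 17 alternatives, the call was lost in 8 for H2-DMa, 8 for H2-Aa, 6 for Ciita and 2 for H2-DMb1. Leaving out all cells with 2 or more tuft markers, which removes every cell of pool 2, left 2 genes past the threshold. Leaving out 1 pool at a time gave 3 to 10. There were 4 without mTEChi pool 1, 4 without mTEChi pool 4, 10 without mTEClo pool 1, 4 without mTEClo pool 2 and 3 without mTEClo pool 3. In the same order, 5.97%, 5.61%, 9.97%, 4.7% and 5.96% of all genes tested passed, beside 11.7% with all pools. The part of the tuft marker cells in the differences was not tested.

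**Figure D2:**
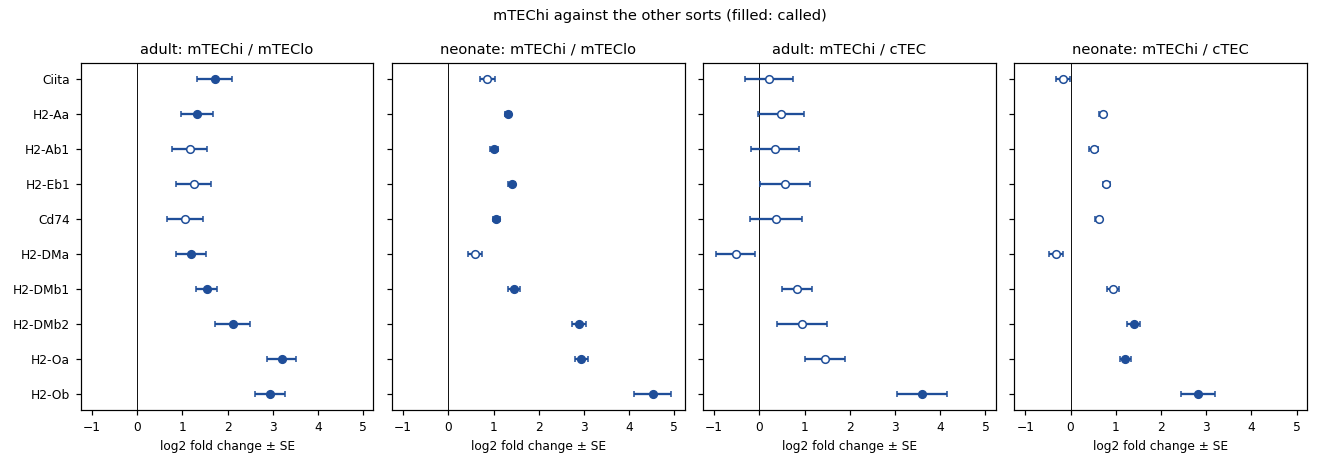
Log2 difference of each gene with its SE in 4 comparisons: mTEChi against mTEClo and mTEChi against cTEC, in adults (pools) and in neonates (plates). Filled points passed an adjusted p under 0.05 and a 2-fold difference. The H2-DO genes lie furthest to the right against mTEClo, and H2-Ob also against cTEC.

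Markers of other cells moved with the mTEChi gate. The summed level of 5 B cell markers was 82.9 to 134.9 CPM in adult mTEChi pools and 5.39 to 77.2 CPM in mTEClo, that of 5 dendritic cell markers 125.7 to 183.3 CPM against 40.6 to 53.6 CPM, and that of 4 macrophage markers 264.8 to 549.3 CPM against 14.8 to 71.98 CPM. The summed level of 7 thymocyte markers was 48.2 to 137.2 CPM in adult mTEChi pools, 9.82 to 12.02 CPM in mTEClo and 324.5 CPM in the adult cTEC pool. B cells and dendritic cells carry class II and H2-DO themselves. Ptprc, which encodes the CD45 used to remove such cells in the sort, did not follow, with 3.94 to 42.02 CPM in mTEChi and 18.0 to 69.4 CPM in mTEClo. The part of these transcripts in the differences was not tested. At least 1 read of the list was found in 97.9% of the 620 adult mTEChi for dendritic cells, 96.5% for macrophages and 90.5% for B cells.

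The share of cells with a read differed between the genes, also within the H2-DO pair. H2-Aa and Cd74 had a read in 98.3 to 100% of cells in all 8 groups. H2-Ob had a read in 96.6% of adult mTEChi, 49.9% of adult mTEClo and 39.0% of adult cTECs. Because depth differed between groups (median 772240 reads per cell in adult mTEChi and 592899 in adult mTEClo), every cell was also thinned to 200000 reads, which left out no cell. At that depth, 81.8% of adult mTEChi, 21.0% of adult mTEClo and 16.9% of adult cTECs had 5 or more H2-Ob reads. For H2-Oa the same shares were 92.4%, 22.4% and 66.2%. Both chains were thus detected in fewer mTEClo, and H2-Oa alone of the pair stayed common in cTECs.

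Taking 1 adult mTEChi cell and 1 adult mTEClo cell at a time, the mTEChi cell had more H2-Oa CPM in 94.4% of pairs, more H2-DMb2 in 91.1%, more H2-Aa in 90.9% and more Ciita in 78.3%. H2-DMa was close to Ciita, at 79.3%. In neonates the shares were 63.4% for Ciita and 61.2% for H2-DMa, and the other 8 genes lay above both in each age. Of the adult mTEClo, 44 cells had no Ciita read. Their median H2-Aa was 28.98 CPM, against 812.9 CPM in the mTEClo with a Ciita read, and their median Cd74 was 61.7 against 1463.2 CPM. These cells were not shallower, with a median of 679698 reads against 587304.

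In neonates the gates could be compared on the same plates, which the adult data do not allow. Neonatal mTEClo carried the cTEC marker list at 1767.5 CPM, and the part of those transcripts in the differences was not tested. Between neonatal mTEChi and mTEClo, 8 of 10 genes passed the test (edgeR's quasi-likelihood test on 15 sums of plate and sort with the plate as a block), where 31.9% of the 23349 genes tested passed. The median log2 difference was 1.37 for the 10 genes and 0.063 for all genes tested. H2-Ob was at 57.9, 60.1, 73.4, 57.8 and 46.6 CPM in mTEChi on plates 16 to 20 and at 2.1, 2.1, 7.2, 1.2 and 3.4 CPM in mTEClo. It was 22.9-fold higher (log2 4.52 ± 0.41, edgeR adjusted p = 2.19e-05), with no overlap. H2-Oa was at 90.7, 103.4, 128.2, 173.8 and 117.5 CPM against 9.9, 12.8, 18.9, 23.5 and 21.9 CPM, 7.70-fold higher (log2 2.94 ± 0.14, edgeR adjusted p = 1.78e-06).

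H2-DMb2 was again next, at 329.3, 435.2, 459.5, 472.1 and 469.8 CPM in neonatal mTEChi and 77.2, 46.6, 51.04, 81.2 and 60.7 CPM in mTEClo (7.42-fold, log2 2.89 ± 0.15, edgeR adjusted p = 2.79e-06). H2-Aa was at 1505.1, 1816.3, 2228.8, 1941.8 and 1837.4 CPM against 688.9, 788.4, 971.9, 847.7 and 695.8 CPM, 2.50-fold higher (log2 1.32 ± 0.07, edgeR adjusted p = 3.01e-06). The other classical chains and Cd74 also passed on these plates: H2-Ab1 by log2 1.01 ± 0.09, H2-Eb1 by 1.41 ± 0.08 and Cd74 by 1.06 ± 0.07, beside H2-DMb1 by 1.46 ± 0.13. The fitted adult differences of H2-Ab1, H2-Eb1 and Cd74 were of similar size, with wider SEs over pools. Of the neonatal mTEClo, 4.03% carried at least 4 tuft markers and 51.6% carried 2 or more. The part of these cells in the neonatal differences was not tested. H2-Ab1 and Cd74 were near the 2-fold line, and fell under it without 1 plate (H2-Ab1 0.95 without plate 19 and 0.90 without plate 20, Cd74 0.98 without plate 20). Ciita and H2-DMa were higher but by less than 2-fold. Ciita was at 393.7, 440.9, 515.1, 495.4 and 451.5 CPM in mTEChi and 331.1, 313.1, 310.7, 265.5 and 157.1 CPM in mTEClo (1.82-fold, log2 0.87 ± 0.16, edgeR adjusted p = 0.00166). H2-DMa differed by less (log2 0.59 ± 0.16, edgeR adjusted p = 0.0108).

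**Figure D3:**
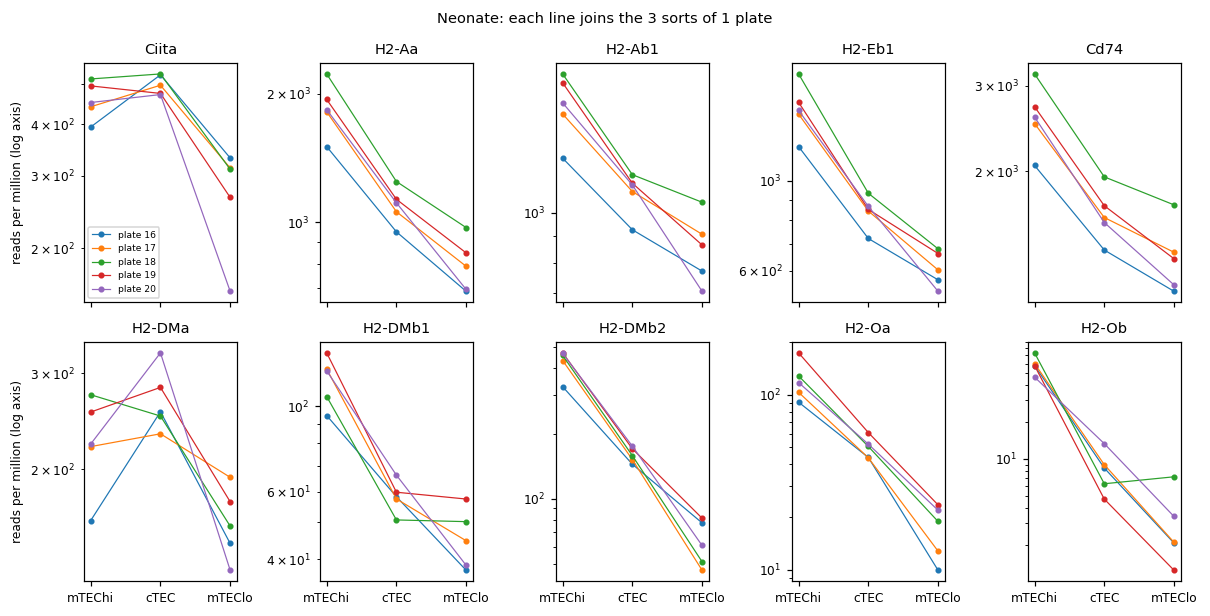
Level of each gene in CPM (log axis) in the 3 neonatal sorts, with 1 line per plate. Each line joins the mTEClo, mTEChi and cTEC cells of the same plate. H2-Ob and H2-Oa are higher in mTEChi on all 5 plates, and H2-DMa and Ciita are close between mTEChi and cTEC.

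The cTEC comparison asks whether the high expression of mTEChi is shared by cortical cells. In adults, H2-Ob was the 1 gene of 10 that passed the test against cTECs, where 2.85% of the 40148 genes tested passed. H2-Ob stood at 147.5 to 194.5 CPM in the 4 mTEChi pools and at 11.1 CPM in the single cTEC pool, and was 12.1-fold higher in mTEChi (log2 3.60 ± 0.54, edgeR adjusted p = 0.0150). H2-Oa, at 47.02 CPM in cTECs, differed by log2 1.45 ± 0.45 (edgeR adjusted p = 0.132). The remaining genes differed by log2 -0.53 to 0.94, with Ciita at 449.1 CPM in cTECs (log2 0.21 ± 0.53, edgeR adjusted p = 0.848). Leaving out cells with 2 or more tuft markers left 0 genes past the threshold (H2-Ob adjusted p = 0.132, edgeR). That flag marked 37.7% of adult cTECs, and 0.742% of all genes passed in that fit. Without only the cells with at least 4 markers, 3.36% of all genes passed. With 1 cTEC pool these intervals are wide, and a missed threshold does not show equal levels.

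On the neonatal plates, 3 of 10 genes passed against cTECs, where 37.1% of the 23349 genes tested passed, a share of members no higher than that background. They were H2-Ob, H2-DMb2 and H2-Oa. H2-Ob was at 8.4, 9.0, 6.3, 4.7 and 13.3 CPM in cTECs, and mTEChi were 7.07-fold higher (log2 2.82 ± 0.38, edgeR adjusted p = 0.00017). H2-DMb2 was at 144.2, 151.5, 157.96, 170.02 and 174.8 CPM in cTECs (log2 1.39 ± 0.14, edgeR adjusted p = 2.96e-05). H2-Oa was at 43.8, 43.6, 50.7, 60.8 and 52.2 CPM (log2 1.21 ± 0.13, edgeR adjusted p = 3.63e-05). A further 5 genes were higher in mTEChi by less than 2-fold with an adjusted p under 0.05, from H2-Ab1 (log2 0.51 ± 0.09) to H2-DMb1 (log2 0.94 ± 0.13).

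Ciita and H2-DMa did not share this direction. Ciita was at 527.1, 497.3, 529.8, 475.1 and 472.1 CPM in neonatal cTECs, above the mTEChi of the same plate on 4 of 5 plates, and the difference was log2 -0.17 ± 0.16 (edgeR adjusted p = 0.410). H2-DMa was at 254.97, 232.2, 250.4, 282.7 and 327.2 CPM in cTECs and at 160.8, 219.96, 274.003, 254.7 and 222.4 CPM in mTEChi (log2 -0.32 ± 0.16, edgeR adjusted p = 0.109). Cell by cell, an mTEChi cell had more H2-DMa than a cTEC in 36.5% of adult pairs and 35.5% of neonatal pairs. The H2-DMa difference missed the threshold in both ages.

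These levels can be set against each other within a sample, as the H2-Oa reads per exon base over the H2-DMa reads per exon base. The ratio was 1.93 ± 0.26 (SD, n = 4) in adult mTEChi and 0.49 ± 0.11 (n = 3) in adult mTEClo, with ranges of 1.66 to 2.18 and 0.416 to 0.618. It was 0.486 in adult cTECs, 1.83 in Aire-KO mTEChi and 0.467 in Aire-KO mTEClo. On the neonatal plates it ran from 1.15 to 1.67 in mTEChi, from 0.162 to 0.411 in mTEClo and from 0.391 to 0.527 in cTECs. The mTEChi ranges stood apart from those of mTEClo at both ages and from that of neonatal cTECs, and lay above the single adult cTEC value.

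The exact two-sided permutation test gave p = 0.0571 for adult mTEChi against mTEClo, the smallest that 4 against 3 pools allow, and p = 0.0625 for each neonatal comparison, the smallest that 5 pairs allow. Among 33 such tests (11 ratios in 3 comparisons) none could therefore reach 0.05. Ranges stood apart in most of the 33, even for H2-Aa per H2-Ab1 at log2 0.136 between adult gates. H2-Oa per H2-Aa also differed in all 3 comparisons with ranges apart, by log2 1.81 in adults, 1.63 in neonates and 0.51 against neonatal cTECs. H2-Ob per H2-Oa differed by log2 -0.25 between adult gates (exact p = 0.686), with overlapping ranges. It differed by 1.64 between neonatal mTEChi and cTECs, with ranges apart. The ratio of H2-DO to H2-DM transcripts says nothing of the protein complexes, which were not measured.

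**Figure D4:**
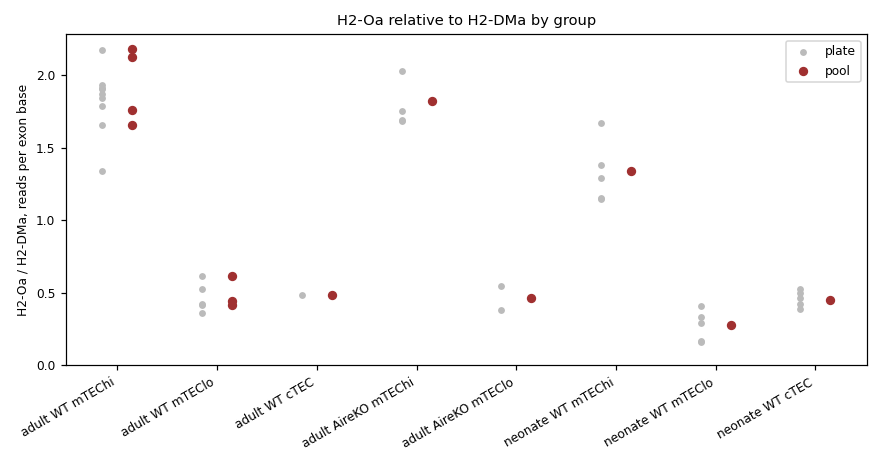
Reads per exon base of H2-Oa over those of H2-DMa in each group, with pools and neonatal plates as points. The ratio is above 1 in every mTEChi pool and neonatal mTEChi plate and below 1 in every mTEClo and cTEC one. Where 1 falls depends on the exon lengths used.

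The comparison of neonates with adults asks whether the pathway is set at birth. No gene of the 10 passed over pools, in mTEChi or in mTEClo, where 0% of the 39971 genes tested passed (edgeR's quasi-likelihood test, with 2.01% of genes in mTEChi and 9.93% in mTEClo at an unadjusted p under 0.05, and 0.0876% and 4.59% of genes called by DESeq2). Neonates are a single pool, and age is confounded with plate. Apart from H2-Ob, the fitted log2 differences of neonatal from adult mTEChi lay between -0.44 and 0.19. H2-Ob stood at 58.5 CPM in neonatal mTEChi, below all 4 adult pools (147.5 to 194.5 CPM), a log2 difference of -1.44 ± 0.47 (unadjusted p = 0.0146, edgeR adjusted p = 1). By less, Ciita (450.6 against 556.6 to 712.1 CPM), H2-DMb1 (115.4 against 126.8 to 157.95 CPM) and H2-Oa (119.2 against 132.9 to 168.6 CPM) also lay below all 4 adult pools. The remaining genes lay within the range of the adult pools.

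H2-Ob was also low in neonatal mTEClo, at 2.9 CPM against 10.9 to 22.3 CPM in adult pools (log2 -2.76 ± 0.53, edgeR adjusted p = 0.149). With plates as the units, it was the 1 gene of 10 that passed in mTEChi (log2 -1.42 ± 0.27, edgeR adjusted p = 0.00463, where 1.79% of genes passed) and in mTEClo (log2 -2.82 ± 0.31, edgeR adjusted p = 4.96e-07, where 16% of genes passed). Its partner H2-Oa showed a smaller gap in mTEChi, at 119.2 CPM in neonates beside 132.9 to 168.6 CPM in adults. In neonatal mTEClo H2-Oa was at 18.3 CPM, within the adult range. At 200000 reads per cell, 53.2% of neonatal mTEChi had 5 or more H2-Ob reads, against 81.8% of adult mTEChi, whereas the shares for H2-Oa were 91.8% and 92.4%.

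The comparison of Aire-KO with wild type asks whether the pathway depends on Aire, which is itself expressed in mTEChi. No gene of the 10 passed in mTEChi or mTEClo, where 0% of the 39971 genes tested passed (edgeR's quasi-likelihood test, with 4.37% and 3.55% of genes at an unadjusted p under 0.05 and 1.92% and 0.68% called by DESeq2). Each Aire-KO group is a single pool, so its spread was taken from the groups with several pools. Aire itself did not pass in mTEChi, so a missed threshold here cannot show that a gene is independent of Aire. In mTEChi, 8 of the 10 genes had fitted log2 differences between -0.16 and 0.16. The other two were higher in the Aire-KO pool. Ciita was at 635.6, 715.3, 979.5 and 937.6 CPM on the 4 Aire-KO plates, beside 440.9 to 802.3 CPM on the 9 wild-type plates (log2 0.51 ± 0.52, edgeR adjusted p = 0.968). H2-Ob was at 255.3, 229.05, 365.4 and 200.4 CPM on those plates, beside 137.5 to 200.1 CPM on the wild-type plates (log2 0.88 ± 0.40, edgeR adjusted p = 0.925).

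H2-Ob therefore ran from 58.5 CPM in neonatal mTEChi through 147.5 to 194.5 CPM in adult wild-type pools to 275.3 CPM in Aire-KO mTEChi, the widest spread of the 10 genes over mTEChi groups. With plates as units, the Aire-KO difference had an adjusted p of 0.0427 (edgeR) at a log2 difference of 0.85 ± 0.26, under 2-fold. In Aire-KO mTEClo, Ciita was at 316.3 CPM, beside 103.8 to 265.9 CPM in the wild-type pools (log2 0.94 ± 0.53, edgeR adjusted p = 1). An interaction term asked whether the Aire-KO or the neonatal difference was unlike in the 2 mTEC gates. No gene of the 10 passed it over pools, where 0% of 39971 genes passed for Aire-KO or for neonates (edgeR, 3.44% and 3.81% of genes at an unadjusted p under 0.05, 0.468% and 0.628% called by DESeq2). With plates as units, H2-Ob was the 1 gene of 10 that passed in the neonatal interaction (log2 1.41 ± 0.39, edgeR adjusted p = 0.0276, where 5.33% of genes passed), while limma with equal weight per cell put the value at -1.04.

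The per-cell relation of each gene to Ciita was described by Spearman's rho within a plate, averaged over plates of at least 20 cells. Cells of a plate share library preparation and differ in depth, and sparse counts lower rho, so the values are descriptions. In adult wild-type mTEChi (8 plates of 64 to 87 cells) the H2-DM and H2-DO genes came closest to Ciita. H2-DMb1 had a mean rho of 0.47, H2-DMb2 0.41, H2-Ob 0.37, H2-Oa 0.33 and H2-DMa 0.30. The classical chains were lower, with H2-Eb1 at 0.27, H2-Ab1 at 0.23 and H2-Aa at 0.20, and Cd74 was lowest at 0.12 (plates -0.05 to 0.26). Across 10418 protein-coding genes the median rho was 0.018 and the 95th percentile 0.238, so H2-Ab1, H2-Aa and Cd74 lay below that percentile.

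In adults the classical chains and Cd74 were closer to Ciita in mTEClo than in mTEChi, and the H2-DO genes and H2-DMb1 were not. In adult mTEClo (5 plates of 66 to 77 cells) the mean rho was 0.49 for H2-Aa and H2-Ab1, 0.45 for Cd74 and 0.59 for H2-DMb2, the highest of 10066 genes ranked, while H2-DMb1 was at 0.35 and H2-Oa and H2-Ob at 0.30. In neonatal mTEClo (4 plates of 25 to 30 cells) it was 0.65 for H2-Aa and for H2-Ab1, 0.44 for H2-DMb1 and 0.15 for H2-Ob, beside 0.46 for H2-DMb1 and 0.35 for H2-Ob in neonatal mTEChi. Without cells with 2 or more tuft markers, the mean rho in adult mTEClo was 0.18 for H2-Aa and 0.20 for Cd74. Pool 2 then kept 0 cells and pool 3 kept 15, under the 20 needed per plate, so only pool 1 entered these means. Leaving out the flagged cells thus cannot be told apart from leaving out the plates of pools 2 and 3. The part of the tuft marker cells in these 2 relations was not tested. In Aire-KO mTEChi (4 plates of 81 to 87 cells) the classical chains were closer to Ciita than in wild type, with H2-Aa at 0.44 (plates 0.32 to 0.56, against 0.10 to 0.36 in wild type) and Cd74 at 0.44. That difference was not tested.

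**Figure D5:**
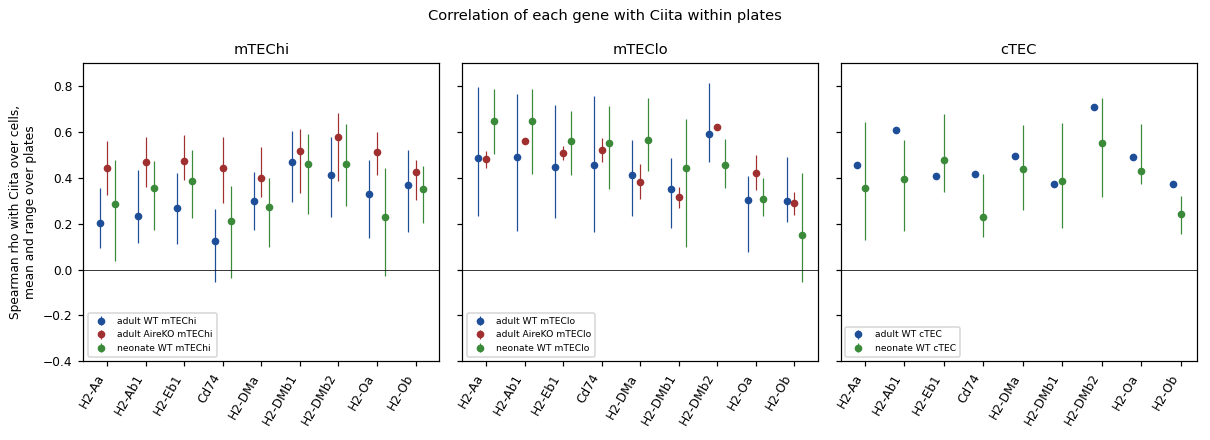
Spearman's rho of each gene with Ciita over the cells of a plate, as the mean over plates with the range over plates, by group. Cd74 and H2-Aa are near the bottom in adult wild-type mTEChi and higher in mTEClo and Aire-KO mTEChi, and H2-DMb2 is high throughout.

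The classical chains kept to each other more than to Ciita. In adult mTEChi the mean rho was 0.90 between H2-Aa and H2-Eb1, 0.89 between H2-Ab1 and H2-Eb1 and 0.88 between H2-Aa and H2-Ab1. Between the H2-DO chains H2-Oa and H2-Ob it was 0.61, and between H2-DMa and H2-DMb1 0.55. In adult mTEClo, where H2-Ob was often at 0, the H2-DO pair had a rho of 0.25 while H2-Aa and H2-Ab1 stayed at 0.83.

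Outside the 10 genes, those closest to Ciita in adult mTEChi were Dexi (0.63), Tvp23a (0.57), Utf1 (0.51), Snx8 (0.50) and Aire (0.49). Dexi overlaps the Ciita gene body by 25888 bases on the other strand, and Tvp23a lies 32697 bases away, so for Dexi a shared read cannot be told apart from shared expression. Dexi and Tvp23a were also the closest 2 in neonatal mTEChi (0.66 and 0.56), ahead of S100a2 (0.53), Ank (0.51) and Sh3tc2 (0.50). In Aire-KO mTEChi the closest were Dexi (0.68), Icosl (0.62), Snx8 (0.61), Tvp23a (0.59) and Inf2 (0.58). In adult mTEClo they were Pltp (0.53), Serpina3i (0.51), Gas6 (0.50), Iigp1 (0.50) and Dexi (0.50).

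The related chain gene H2-Eb2, whose promoter window is printed with those of the 10 genes, was also higher in mTEChi than in both other sorts. It stood at 713.7, 886.8, 902.8 and 845.9 CPM in adult mTEChi and at 63.9, 48.6 and 89.6 CPM in adult mTEClo (log2 3.44 ± 0.25, edgeR adjusted p = 0.000776). It was at 106.4 CPM in adult cTECs (log2 2.71 ± 0.39, edgeR adjusted p = 0.0134). In neonates it was higher in mTEChi by log2 4.27 ± 0.62 against mTEClo and by 3.65 ± 0.58 against cTECs. The pseudogene H2-Ea-ps was at 2.4 to 9.0 CPM in the adult mTEChi pools and at 0 to 0.1 CPM in mTEClo.

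The counts that follow for other lists stand beside the shares of all genes that passed, 11.7% between adult gates, 2.85% against adult cTECs, 31.9% between neonatal gates and 37.1% against neonatal cTECs. Of the 7 factors that bind class II promoters, Rfx5, a subunit of RFX, was the 1 gene that passed between adult gates, at 117.1 CPM in mTEChi against 40.99 CPM in mTEClo (log2 1.30 ± 0.26, edgeR adjusted p = 0.018). In neonates Rfxap, another RFX subunit, was the 1 of 7 that passed, and it was lower in mTEChi by log2 -1.11 ± 0.15 against mTEClo and -1.72 ± 0.15 against cTECs. Of 9 genes upstream of Ciita, the signalling inhibitor Socs1 was higher in mTEChi than in mTEClo in adults (log2 1.13 ± 0.24) and neonates (1.04 ± 0.22), and the interferon gamma receptor chain Ifngr2 in neonates (1.20 ± 0.07). Against neonatal cTECs, 1 of the 9 was higher and 2 were lower in mTEChi, among them Socs1 (1.10 ± 0.22) and the interferon response factor Irf1 (-1.05 ± 0.15).

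Of 10 genes of antigen processing and class II turnover, 5 passed between adult gates, 3 higher and 2 lower in mTEChi. The endosomal cathepsin Ctss, which cleaves the invariant chain, rose by log2 2.25 ± 0.19 (201.9 against 37.2 CPM, edgeR adjusted p = 0.00118). Ctsh rose by 2.08 ± 0.26 and the thiol reductase Ifi30 by 1.89 ± 0.18, while Ctsl fell by 2.23 on the log2 scale and the ubiquitin ligase gene March8, whose product removes class II from the surface, fell by 1.55. Ctsl, the cathepsin of cTECs, was at 1185.4 CPM in adult cTECs and 80.3 ± 35.4 CPM (SD, n = 4) in mTEChi (log2 -4.15 ± 0.65, edgeR adjusted p = 0.0168), and Ctss went the other way at 18.5 CPM in cTECs (log2 3.18 ± 0.34, edgeR adjusted p = 0.00523). Against adult cTECs 5 of the 10 passed in all, with Ifi30 higher and March8 and Ctsd lower.

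The neonatal plates gave 5 of 10 against mTEClo (Ctss, Ctsh, Ifi30 and Cd63 higher, Ctsl lower) and 4 of 10 against cTECs (Ctsh, Ctss and Ifi30 higher, Ctsl lower). The cathepsin pair therefore ran in opposite directions between mTEChi and cTECs at both ages. Of 7 class I genes, listed for comparison, none passed between adult mTEChi and mTEClo or cTECs by edgeR. In neonates Nlrc5, the class I transactivator, B2m, H2-D1 and H2-K1 were higher in mTEChi than in mTEClo by log2 1.56, 1.5, 1.27 and 1.07, and the first 3 also passed against cTECs. No gene of these lists passed in the neonate against adult or Aire-KO comparisons over pools.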

How the data were processed

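The authors trimmed reads with fastp 0.20.0, aligned them to mm10 with STAR 2.7.3a, removed reads of mapping quality under 5 with SAMtools 1.9 and duplicates with Picard 2.21.1, and counted genes without strand with htseq-count 0.11.2 (GRCm38.99). They kept cells with over 200000 reads and over 8000 genes. The deposited values used are raw counts per gene and cell. A normalized table was not used. The 168 cells with 2 sequencing runs have 1 column each.

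Counts were summed by pool and tested with edgeR 4.0.16 (quasi-likelihood, TMM, filterByExpr, R 4.3.3), over 11 mTEC pools or, for cTECs, 13 pools (5 residual degrees of freedom each). Neonatal sorts were compared over 15 plate sums with the plate as a block (8 degrees of freedom). A gene passed at an adjusted p under 0.05 and a 2-fold difference. The fit was tested on simulated data. Alternatives were DESeq2 1.42.0, limma 3.58.1 on mean log2(CPM + 1), size factors, no filter, plates as units, thinned cells, other samples in the fit, tuft marker cells left out and each pool left out. CPM is reads per 1000000 counted reads, and exon lengths came from GENCODE M21 (48263 of 48437 genes matched). Named genes were the 10 members, the 5 genes closest to Ciita in each of 4 groups, and genes of the lists that passed, up to 4 per list by fold, and all 5 where 5 passed, the last added after its values were seen. The members and lists were chosen with earlier results of these data known. A gene of the lists is not reported here.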

Additional observations from a re-analysis of the deposited data

Results flagged for a closer look

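In neonatal mTEChi, H2-DMb2 on plate 16 stood at 329.3 CPM, below the other 4 plates (435.2 to 472.1 CPM), and its gap to the nearest plate was 0.742 of the whole range over 5 plates. It was found among 50 groups of values examined, where chance alone flags about 1 in 20. The level of plate 16 mTEChi was also the lowest of the 5 plates for Ciita, H2-Aa, H2-DMa and H2-Oa.

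With plates as the units, the neonatal difference of H2-Ob in mTEChi minus that in mTEClo was 1.41 on the log2 scale (edgeR adjusted p = 0.0276), where 5.33% of genes passed. Over pools the same value was 1.31 ± 0.62 (edgeR adjusted p = 1), and neonatal mTEClo held 2.9 CPM of H2-Ob, so the difference compares a low level with a lower one.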

How the results depend on the processing

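Over all results and alternatives, 14 counts of genes passed moved by over 1.5 times. Between adult mTEChi and mTEClo, where 7 passed, leaving out 1 pool gave 3 to 10 and leaving out tuft marker cells gave 2. Of all genes tested, 11.7% passed in the main fit, 4.7 to 13.9% with 1 pool left out and 1.8% without tuft marker cells. Against adult cTECs, where 1 passed, DESeq2 and plates as units each gave 2 and leaving out tuft marker cells gave 0. The shares of all genes were 15.1%, 8.55% and 0.742%, beside 2.85% in the main fit. Neonate against adult gave 1 with plates as units in mTEChi, and in mTEClo 1 with DESeq2, 1 with plates as units and 0 to 2 with 1 pool left out. The shares of all genes were 1.79% in mTEChi, and 4.59%, 16% and 0 to 1.34% in mTEClo. The neonatal interaction gave 1 with plates as units, and its H2-Ob value turned to -1.04 with limma at equal weight per cell. The cause was not tested. In the comparisons where no gene passed over pools, fitted differences changed sign under some alternatives, none of them past the threshold: 5 of 130 values (neonate against adult mTEChi), 25 of 130 (mTEClo), 31 of 130 and 25 of 130 (Aire-KO mTEChi and mTEClo), and 23 and 27 of 170 in the interactions. No sign changed in the other 4 comparisons. Single pools for cTECs, neonates and Aire-KO, and mTEClo pools that differ in tuft marker cells, limit what these samples can show.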

Other observations

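Aire varied with some of the class II genes over the cells of adult wild-type mTEChi plates (8 plates of 64 to 87 cells). The mean Spearman rho within a plate was 0.62 with H2-Eb2, 0.55 with H2-DMb2, 0.49 with Ciita and 0.30 with H2-Aa, while with Nlrc5, the class I transactivator, it was -0.15. In adult mTEClo (5 plates of 66 to 77 cells), where Aire was low, the mean rho was -0.07 with Ciita and -0.01 with H2-Aa. Of the Aire-KO mTEClo, 12 had no Ciita read, and their median H2-Aa was 80.04 CPM against 774.9 CPM in the rest. These cells were shallower, with a median of 449324 reads against 534772. Outside adult mTEClo few cells lacked a Ciita read. H2-Aa was at 485.3 CPM in 1 neonatal mTEClo, 918.3 CPM in 1 Aire-KO mTEChi and 1880.7 CPM in 1 neonatal cTEC. The 2 such cells of adult wild-type mTEChi lay far apart, with a median of 786.4 CPM and quartiles of 410.9 and 1161.9 CPM.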
